A study of Caenorhabditis elegans with 32 samples.

Results

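Of 200551 nuclear 500-bp windows of the C. elegans genome, 11575 were enriched for H3K27ac in wild-type (WT) early embryos at 20 °C. At 786 of them the ratio of immunoprecipitated to input reads was lower in every heat stress (HS) replicate than in every WT replicate. These 786 windows were chosen by these same H3K27ac values. The enrichment E of a window was log2((IP + 2)/(input + 2)), where the immunoprecipitated (IP) and input counts of a replicate were scaled by library totals. Eligible windows, with a mean WT E of at least 1 and at least 10 scaled input reads on average, numbered 11575, and one was selected when E in all 3 HS pairs lay below E in all 3 WT pairs. The 786 windows, called HS-lower windows here, were 6.79% of the eligible windows. E is a log2 ratio throughout, so a difference of 1 is a 2-fold change.

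H3K27ac was compared between 4 groups of early embryos with 3 IP and 3 input libraries each: WT at 20 °C, WT after 37 °C (HS), and met-2Δ and met-2-CD mutants at 20 °C. H3K9me2 was measured in WT only, at 20 °C and after 37 °C, with 2 IP and 2 input libraries each. The labels give a 1 h exposure of worm cultures before chromatin extraction for both marks, while the study's text gives a shorter one for H3K27ac and a legend of it gives the same one as the labels. Embryos came from heat-stressed adults in prewarmed buffers. MET-2 is the worm homolog of the SETDB1 histone methyltransferase. met-2Δ is a deletion allele, and met-2-CD keeps the protein with its catalytic site mutated. No heat-stressed mutant was analysed here. Whole embryos hold many cell types, so fewer cells with the mark and less of it per cell cannot be told apart.

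Acetylation of lysine 27 of histone H3 marks active promoters and enhancers. It is laid down by CBP/p300 acetyltransferases and removed by deacetylases, and its level follows the activity of nearby genes. Dimethylation of lysine 9 marks heterochromatin, which in C. elegans is richest on the arms of the autosomes and over repeats, and MET-2 deposits most of it in embryos. Acute heat induces a small set of chaperone genes through the factor HSF-1, and in many organisms it also halts transcription at many other genes. A gene annotation of the genome build was not used here, so windows are given by position and no gene is assigned to them.

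The H3K27ac IP libraries held from 19202150 to 35938600 nuclear reads and their inputs from 16494440 to 63499122. The H3K9me2 IP libraries held from 25221458 to 56017144, and their inputs from 6671338 to 85333594. Mitochondrial reads made up from 4.44% to 45.0% of the H3K9me2 inputs. As a check of the strain labels, 2 windows of the nuclear genome had 0 input reads in the 3 met-2Δ libraries together and at least 50 reads in each other H3K27ac input, and both lay on chromosome III, where met-2 is located. Over all 196122 nuclear windows past the input minimum, the median HS minus WT difference in E was -0.16, whereas over all eligible windows it was 0.14. Most marked windows thus had higher E in HS than in WT, and the HS-lower windows went the other way.

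E fell between WT and HS at these windows as the rule required. Their median E was 1.54, 1.52 and 1.40 in WT replicates 1, 2 and 3, and 1.02, 1.03 and 1.09 in the HS replicates. The other 10789 eligible windows had medians of 1.55, 1.43 and 1.31 in WT and of 1.59, 1.71 and 1.66 in HS. The WT levels of both sets were thus alike, and the sets parted in HS. The HS minus WT difference at the 786 windows had a median of -0.44, ran from -1.52 to -0.08 and was at least 1 in size at 26 windows and at least 0.5 in size at 288. At most of them E fell but stayed above 0: mean E in HS was still at least 1 at 418 windows (53.2%), and it was 0 or less at 11. These values chose the windows and carry no test.

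**Figure D1:**
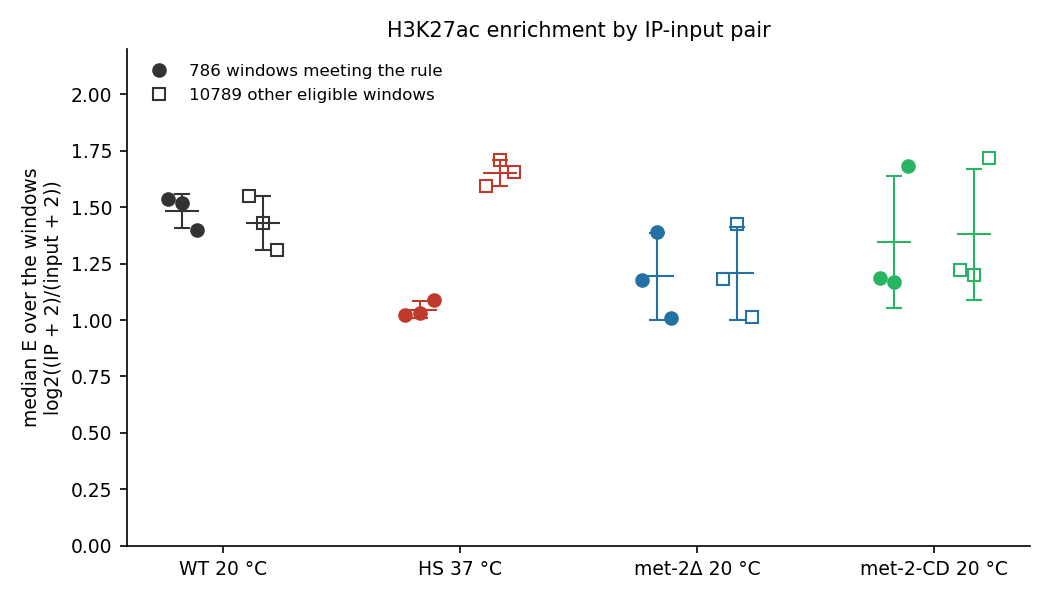
Median H3K27ac enrichment E (log2, y axis) over the HS-lower windows (filled circles) and the other eligible windows (open squares) in each IP and input pair of the 4 groups, with the mean and SD of the 3 pairs as bars. The HS circles lie between 1.02 and 1.09, below the WT circles at 1.40 to 1.54, while the HS squares lie between 1.59 and 1.71.

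The lower ratio came from both of its parts. The median scaled IP count of the HS-lower windows was 399.8 in WT and 326.8 in HS, while that of the other eligible windows was 395.0 in WT and 491.6 in HS. The median scaled input count was 142.1 in WT and 160.1 in HS at the HS-lower windows, and 148.0 and 156.9 at the others. On the log2 scale the IP part had a median of -0.27 and the input part of 0.17, against 0.26 and 0.08 at the other eligible windows. The mean IP count was higher in HS than in WT at 61 HS-lower windows (7.76%), against 80.9% of the others. The mean input was higher in HS at 683 (86.9%), against 71.2% of the others. A lower E is thus not by itself a lower IP count. At 393 of the 786 windows (50.0%) the 3 HS IP counts were all below the 3 WT IP counts, and at 223 (28.4%) the 3 HS inputs were all above the WT inputs. Both held at 44 windows and neither at 214. Over the other eligible windows the shares were 2.48% and 11.2%.

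The mirror of the rule is set beside the count. It holds any windows that were higher after heat, so it is not the number expected without an effect of heat. That number was not computed. With the labels swapped in the last step alone, so that all 3 HS pairs lay above all 3 WT pairs, 2623 of the same 11575 eligible windows were selected, or 22.7%. With WT and HS exchanged in every step, 16254 windows were eligible by their HS level and 6398 of them (39.4%) had all WT pairs below all HS pairs. The windows lower in HS were therefore the smaller class in both readings.

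How many windows met the rule depended on the scaling of the libraries. Scaled by the totals of background windows, which had a mean E under 0.5 in every group, 444 windows met the rule and 6463 its mirror. With edgeR's TMM factors for the IP libraries the counts were 312 and 3767, and with totals that include the mitochondrial genome 706 and 2961. The HS-lower windows were 23.1% of the windows selected in either direction with nuclear totals, 6.43% with background scaling and 7.65% with TMM. Of the eligible windows of each scaling they were 6.79%, 2.43% and 2.76%. The median difference over all windows was -0.16 with nuclear totals, 0.01 with background scaling and -0.03 with TMM. Under all 3 of these other scalings 246 of the 786 windows (31.3%) still met the rule, and their median HS minus WT difference with nuclear totals was -0.62.

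Many windows were close to the limits of the rule. The gap between the lowest WT pair and the highest HS pair had a median of 0.12, and it was under 0.1 at 325 windows (41.3%). The window with the smallest gap, on chromosome V from 19251394 to 19251893, had E of 1.79, 1.75 and 1.25 in WT and of 1.14, 1.11 and 1.25 in HS. Just outside, a window on chromosome III from 4504084 to 4504583 had 1.46, 1.81 and 0.91 in WT and 0.87, 0.91 and 0.91 in HS. Both windows showed a mean difference of similar size, -0.43 and -0.50, and one WT pair decided their side. At the limit on the level, a window on chromosome II from 7845480 to 7845979 had a mean WT E of 1.0004, and one on chromosome III from 13524545 to 13525044 missed with 0.99958. In all, 101 of the 786 windows had a mean WT E under 1.1.

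Selection with 1 pair of each group left out gives a view of the pair that was not used. Windows chosen on pairs 1 and 2 numbered 2389, and in pair 3 E was lower in HS than in WT at 48.3% of them, against 18.0% of the other eligible windows. Without pair 2, 1846 windows were chosen and 58.6% were lower in HS in that pair, against 27.2%. Without pair 1, 1272 were chosen and 78.9% were lower, against 46.7%. In the unused pair the chosen windows were thus lower in HS more often than the rest in each of the 3 cases, while their median difference was -0.30 in pair 1, -0.11 in pair 2 and 0.02 in pair 3. With the background scaling these shares were 74.5%, 44.5% and 39.4% in pairs 1, 2 and 3, against 38.5%, 14.9% and 10.9% of the other eligible windows.

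The share of HS-lower windows rose with the WT level of the mark, a value that the rule also used. Of windows with a mean WT E from 1 to 1.25, 6.08% were HS-lower, and of those from 1.25 to 1.5, 5.94%. The share was 6.85% from 1.5 to 2, 10.8% from 2 to 2.5, and 23.3% (20 of 86 windows) at 2.5 or more. The mirror class fell over the same range, from 26.5% to 8.18% and then to 0 of 86 windows. The class of 2.5 or more was the only one without a window that was higher in HS in all pairs. The classes were made from the same WT pairs that the rule and its mirror compared with HS. High WT values favour the rule and work against the mirror, so both trends are partly built in.

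**Figure D2:**
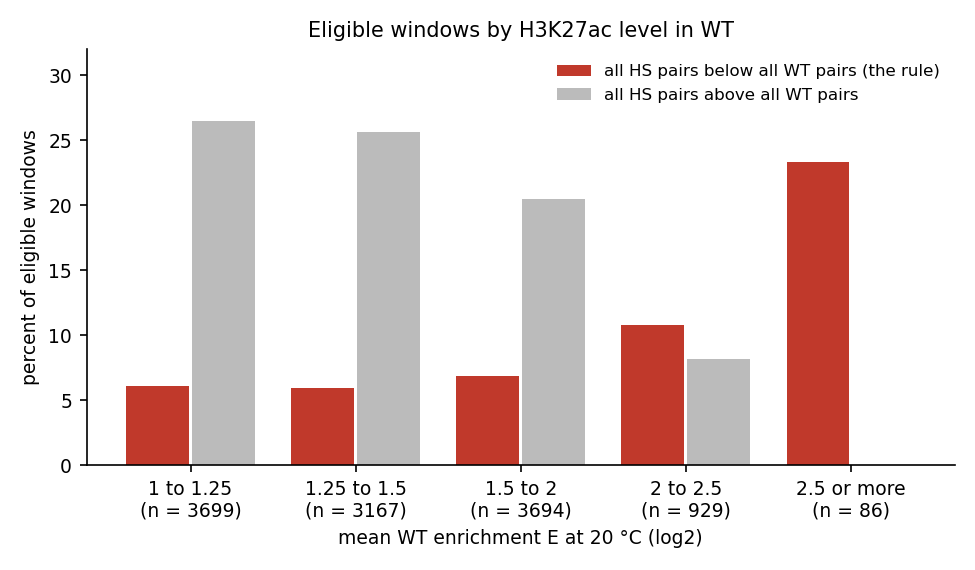
Percent of eligible windows (y axis) in which all HS pairs lay below all WT pairs (red) or above them (grey), by the mean WT enrichment E at 20 °C (x axis, log2), with the number of eligible windows under each class. The red bars go from 6.08% in the lowest class to 23.3% in the highest, and the grey bars from 26.5% to 0.

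The HS-lower windows were spread over all 6 chromosomes. There were 134 on chromosome I (5.54% of its eligible windows), 146 on II (7.32%), 110 on III (5.15%), 144 on IV (7.67%), 112 on V (7.43%) and 140 on X (8.54%). The X chromosome differed most in the mirror class: 12.0% of its eligible windows were higher in HS, against 24.4% on the autosomes. Its median HS minus WT difference over eligible windows was 0.04, against 0.16 on the autosomes. On the autosomes, the outer parts and the centre, each chromosome being cut into 3 equal parts, held similar shares of HS-lower windows, 6.56% and 6.41%, and on X the central part held 10.3%.

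**Figure D3:**
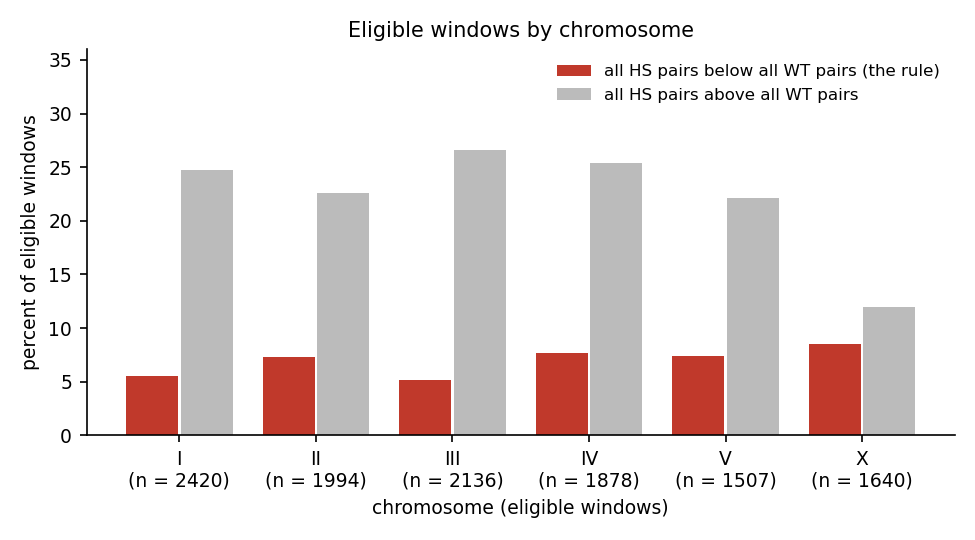
Percent of the eligible windows of each chromosome (x axis, with their number) in which all HS pairs lay below all WT pairs (red) or above them (grey). The red bars lie between 5.15% and 8.54%, and the grey bar of X, at 12.0%, is the lowest of the grey bars.

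Within marked domains, most HS-lower windows did not touch another one. They formed 604 runs of adjacent windows, of which 474 were single windows, 100 had 2, 23 had 3, 5 had 4, and the others had 8 and 15. In all, 312 windows (39.7%) touched another HS-lower window, and 52.3% of the mirror class touched one of their own. The classes made up 6.79% and 22.7% of the eligible windows, so these 2 shares do not compare their clustering. The shares expected from scattered windows were not computed. Of the 3760 runs of eligible windows, 529 (14.1%) held at least 1 HS-lower window, and in 123 every window was HS-lower, although only 30 of these runs were longer than 1 window. In 79 runs an HS-lower window and a window of the mirror class lay together. The number expected from the shares of both classes was not computed, so this count does not show opposite changes within a domain.

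The position in the domain varied. Of eligible windows that stood alone, 10.8% were HS-lower, of those at the edge of a run 5.21%, and of those inside a run 7.96%. Runs of at least 11 eligible windows had a share of 10.6%, against 5.43% in runs of 2 or 3. Those long runs held 138 HS-lower windows, among them the unbroken runs of 15 and 8, which lie in 1 eligible run each. Eligible runs were defined by the same WT pairs that the rule compared with HS. The shares by position and by run length are therefore not independent of the rule. Eligible windows next to an HS-lower window but not selected themselves numbered 687, and mean E was lower in HS at 501 of them (72.9%), with a median difference of -0.14. Among eligible windows not next to one the share was 26.6% and the median difference was 0.19. Neighbouring windows share DNA fragments and the same libraries, so these neighbours are not independent of the windows that were chosen.

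A few broad stretches stood out. Joining HS-lower windows across gaps of up to 4 windows gave 6 stretches with at least 5 such windows, on chromosomes I, II, III, IV (2 stretches) and V, which held 61 of the 786 windows (7.76%). This definition was made after the runs had been seen. The 2 largest held 38 windows and 13 of the 26 windows with a difference of at least 1, and 33 of the 38 met the rule under all 3 other scalings.

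The longest, on chromosome IV from 14030284 to 14048283, spans 18000 bp. Of its 36 windows, 23 were HS-lower and all 36 had a lower mean E in HS. Over its summed counts E was 1.82, 1.55 and 1.37 in WT and 0.86, 0.79 and 0.96 in HS. The met-2Δ pairs gave 1.18, 1.33 and 0.94 and the met-2-CD pairs 1.33, 1.15 and 1.93. The HS values lay below all WT and all met-2-CD values, and overlapped the lowest met-2Δ value. The highest summit of the stretch, 6750 bp before its centre, changed less, with E of 3.02 ± 0.23 in WT and 2.72 ± 0.12 in HS (SD, n = 3 pairs each). Between the summits E fell to about 0: 1750 bp before the centre it was 1.10 ± 0.58 in WT and -0.05 ± 0.11 in HS (SD, n = 3 pairs each). Over all windows past the input minimum the median of mean E in HS was -0.48. An E of 0 is thus above that median. Some windows of the stretch that were not HS-lower came near or below it. Mean E in HS was -0.46 at 750 bp and -0.53 at 4750 bp after the centre, against 0.69 and 0.84 in WT. A second summit, 7750 bp after the centre, was itself lower, with 2.18 ± 0.15 in WT and 1.31 ± 0.17 in HS (SD, n = 3 pairs each).

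Inside this stretch lie the second longest run, 8 windows from 14035284 to 14039283 with a median difference of -1.10, and a run of 4 windows from 14041284 to 14043283 with a median difference of -1.01. In the run of 8, summed E was 1.72, 1.05 and 1.25 in WT and 0.37, 0.27 and 0.41 in HS. In the run of 4 it was 1.15, 1.25 and 0.90 in WT and 0.02, 0.10 and 0.12 in HS. The WT and HS pairs did not overlap in either run. HS stood near an E of 0, still above the median of -0.48 over all windows in HS.

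The longest unbroken run was the stretch on chromosome III from 2162594 to 2170093, with 15 windows in 7500 bp. Summed E was 1.41, 1.81 and 1.51 in WT and 0.75, 0.91 and 0.76 in HS. In met-2Δ it was 1.09, 1.63 and 1.07, and in met-2-CD 1.09, 1.52 and 1.71. The single windows differed by between -1.12 and -0.50, and the run lay inside 37 consecutive eligible windows. Its flanks were mixed. HS reached the WT level in parts of both flanking summits: E was 2.61 ± 0.24 in WT and 2.90 ± 0.12 in HS 7500 bp before the centre, and 1.96 ± 0.45 and 2.00 ± 0.18 at 5500 bp after it (SD, n = 3 pairs each). Nearer to the run on the left side HS was lower, with 2.73 ± 0.48 in WT and 2.39 ± 0.21 in HS 5500 bp before the centre (SD, n = 3 pairs each), a difference within the spread of the WT pairs. At the centre itself, E was 1.62 ± 0.13 in WT and 1.12 ± 0.30 in HS (SD, n = 3 pairs each). On chromosome III the run of lower windows thus lay between stronger summits.

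**Figure D4:**
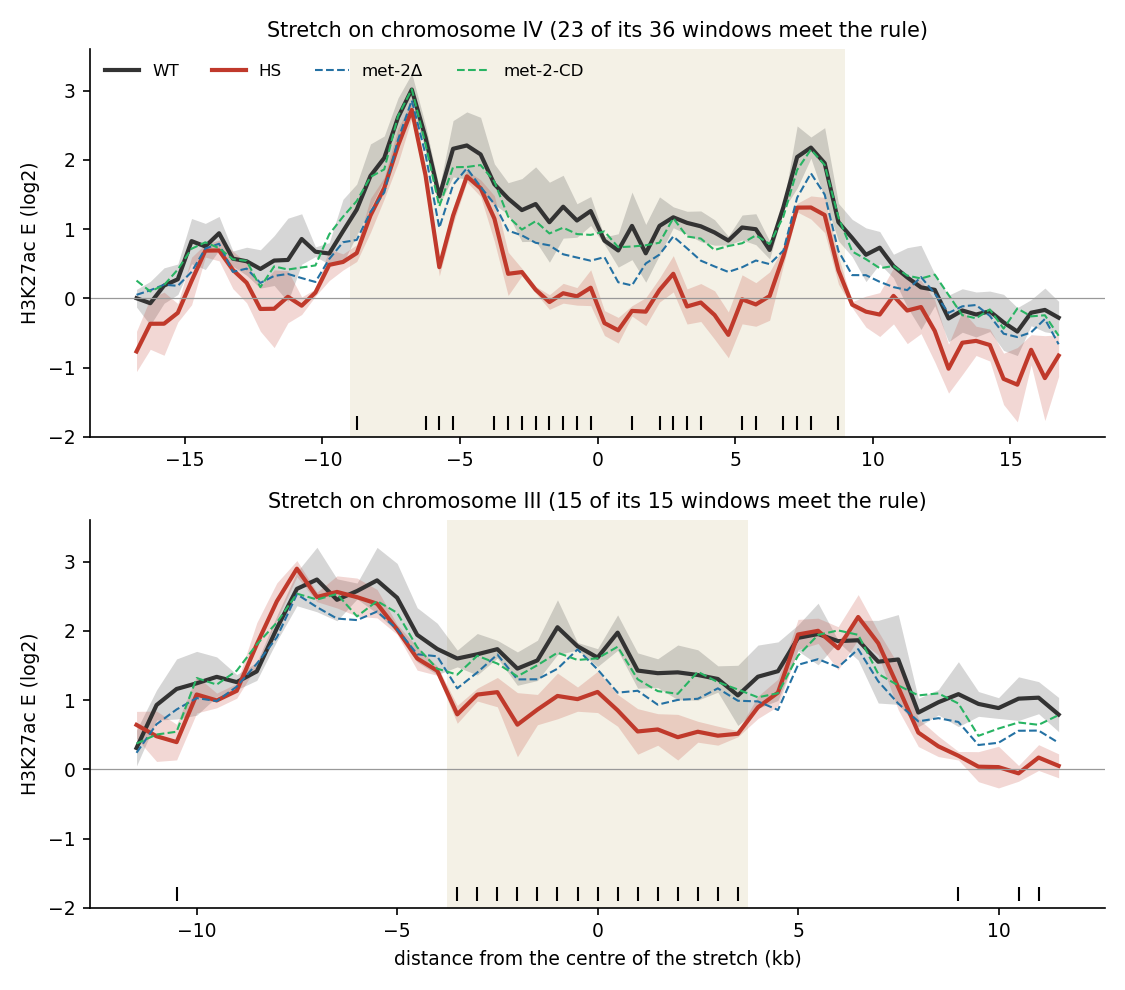
H3K27ac enrichment E (log2, y axis) against the distance from the centre of the 2 largest stretches (x axis, kb; shaded), for WT and HS (lines with bands of 1 SD, n = 3 pairs) and both met-2 mutants (dashed lines), with ticks at the HS-lower windows. On chromosome III the HS line meets the WT line in parts of the flanking summits and runs below it across all 15 windows. On chromosome IV the HS line runs near or below 0 between the summits.

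The other stretches showed smaller differences. On chromosome V from 1567470 to 1571969, summed E was 1.97, 1.96 and 1.65 in WT and 1.47, 1.55 and 1.41 in HS. On chromosome IV from 9772302 to 9778301 it was 1.57, 1.72 and 1.5 in WT and 1.27, 1.18 and 1.49 in HS, so that the groups nearly met. On chromosome II from 11882463 to 11889462 the values were 1.73, 1.77 and 1.67 in WT and 1.60, 1.44 and 1.56 in HS. This last stretch and the one on chromosome IV from 9772302 kept 1 and 0 HS-lower windows under background scaling, and 1 and 4 under TMM. Of the runs of 4 windows, one on chromosome II from 14246453 to 14248452 had a high level, with E of 2.54, 2.47 and 2.19 in WT and of 1.71, 1.85 and 1.86 in HS. One on chromosome X from 8156703 to 8158702 had 1.83, 1.37 and 1.14 in WT and 0.75, 0.45 and 0.76 in HS. WT replicate 1 was the highest pair there, and the lowest WT pair was still above the highest HS pair.

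The lowest HS minus WT difference of a single HS-lower window was at chromosome V from 9088937 to 9089436. Its scaled IP counts were 276, 193 and 217 in WT and 140, 83.1 and 135 in HS, and its scaled inputs were 84.7, 79.1 and 92.3 in WT and 140, 142 and 106 in HS. E was thus 1.68, 1.27 and 1.22 in WT and 0.01, -0.76 and 0.35 in HS, a difference of -1.52. The lower IP counts and the higher inputs moved the ratio in the same direction, and the 3 WT values of each lay outside the range of the 3 HS values. The neighbouring windows completed a run of 3, one from 9088437 to 9088936 with a difference of -1.32 and one from 9087937 to 9088436 with -1.41. The latter was the selected window nearest to the input minimum, with a mean scaled input of 10.2. On the far side, the window from 9089437 to 9089936 missed the minimum with 8.07, and its difference was -2.01.

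On chromosome II from 14405452 to 14405951, E was 2.71, 3.47 and 3.10 in WT and 1.70, 1.58 and 1.62 in HS, a difference of -1.46. The gap between its lowest WT and its highest HS pair was 1.00. Its scaled IP counts were 1320, 1490 and 1240 in WT and 610, 632 and 630 in HS. Its inputs were 200, 133 and 143 in WT and 186, 211 and 203 in HS, so that here the IP accounted for most of the change. In met-2Δ E was 2.68, 3.14 and 2.37, and in met-2-CD 2.46, 2.79 and 3.38, each near the WT values. The window was also one of the 4 HS-lower windows with the highest WT level.

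In the chromosome IV stretch, the windows from 14037784 to 14038283 and from 14036784 to 14037283, had differences of -1.25 and -1.24. Their inputs were alike in both groups, with means of 150 and 146 in the first, while its mean IP count was 389 in WT and 154 in HS. Low counts stood behind 2 other windows with large differences. On chromosome X from 11292189 to 11292688, E was 0.65, 2.26 and 0.11 in WT and -0.16, -0.38 and -0.40 in HS, from scaled inputs of 4.68 to 9.77 in WT. On chromosome V from 19951891 to 19952390, with a mean scaled input of 20.9, E was 1.79, 2.04 and 0.99 in WT and 0.02, 0.81 and 0.07 in HS. Neither of these met the rule under TMM scaling. Of all HS-lower windows, 7 had a mean scaled input under 50.

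The other 3 of the 4 HS-lower windows with the highest WT level kept a mean E above 2 in HS. On chromosome II from 11979463 to 11979962, E was 3.07, 3.20 and 3.17 in WT and 2.67, 2.82 and 2.87 in HS. On chromosome V from 14685913 to 14686412 it was 3.02, 3.19 and 3.07 in WT and 2.18, 2.40 and 2.62 in HS. On chromosome II from 11545464 to 11545963, E was 2.98, 2.80 and 2.76 in WT and 2.47, 2.28 and 2.49 in HS, but the mean IP count was 1110 in WT and 1100 in HS and the mean input was 152 and 205. At that window the difference in the ratio thus lay in the input. All 3 met the rule under each of the other scalings.

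In both mutants the HS-lower windows had H3K27ac levels near those of the other eligible windows. Their median E was 1.18, 1.39 and 1.01 in the met-2Δ pairs and 1.19, 1.17 and 1.68 in the met-2-CD pairs. Over the other eligible windows the medians in met-2Δ were 1.18, 1.43 and 1.02, and those in met-2-CD were 1.22, 1.20 and 1.72. The largest distance between the sets lay in HS, where they had been chosen to differ. Mean E was at least 1 at 519 of the HS-lower windows (66.0%) in the deletion mutant and at 603 (76.7%) in met-2-CD, against 71.9% and 86.7% of the other eligible windows. Since the WT pairs were used to choose the windows, differences from WT are given side by side without a test. Their medians at the HS-lower windows were -0.44 for HS, -0.34 for met-2Δ and -0.17 for met-2-CD, and at the other eligible windows 0.17, -0.23 and -0.06. The 3 comparisons share the WT libraries.

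Between the mutants, which the rule did not use, few windows were called anywhere in the genome and none of the HS-lower windows was among them. A quasi-likelihood test in edgeR, run on IP counts of all 196122 windows, called 63 windows higher in met-2Δ (0.0321%) and 19 lower (0.00969%) at a Benjamini-Hochberg adjusted p under 0.01. With so few calls over all windows, the 0 of 786 says nothing particular about the HS-lower windows. The smallest adjusted p of an HS-lower window was 0.328 in this test. At an unadjusted p under 0.05 there were 25 HS-lower windows, 24 of them lower in met-2Δ, beside 285 of the 10789 other eligible windows and 10066 of all 196122. DESeq2 called 0 HS-lower windows and had 24 of them at that p, beside 10393 of all windows. The median log2FC between met-2Δ and met-2-CD was -0.19 at the HS-lower windows and -0.21 at the other eligible windows, against 0.05 over all windows. These p-values measure the spread between 3 libraries a group, which the labels call replicates. Without met-2-CD replicate 3, the pair with the highest E, the median log2FC at the HS-lower windows was 0.01.

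H3K9me2 at the HS-lower windows was near the level of the genome as a whole. At 20 °C the median H3K9me2 E over the 785 of them past the input minimum of that table was -0.78 in pair 1 and -0.29 in pair 2, against -0.13 and -0.18 over the other eligible windows and -0.86 and -0.27 over all windows. Pair 1 thus placed the HS-lower windows far below the other eligible windows at 20 °C, and pair 2 only slightly below them. After 37 °C the medians were 0.06 and 0.26, against 0.07 and 0.24 over the other eligible windows and 0.04 and 0.27 over all windows. Both sets stood at the same H3K9me2 level after heat in each pair. Both 20 °C pairs held a library that stood apart. The IP library of pair 1 had 0.0726% mitochondrial reads, against 0.754% to 0.994% in the others, and its input was the smallest. The input of pair 2 had 4.44% mitochondrial reads, the lowest share of the 4 inputs, and with 85333594 nuclear reads it was the largest, the others holding from 6671338 to 13775558. Their part in the H3K9me2 values was not tested.

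**Figure D5:**
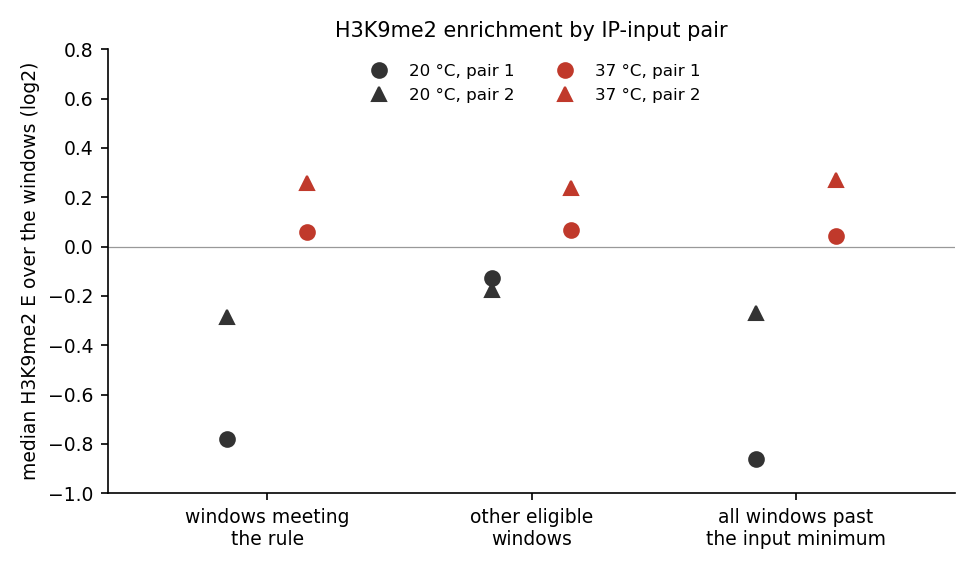
Median H3K9me2 enrichment E (log2, y axis) over the HS-lower windows, the other eligible windows and all windows past the input minimum, for the 2 IP and input pairs at 20 °C (black) and at 37 °C (red). The 37 °C pairs lie between 0.04 and 0.27 in all 3 sets, and pair 1 at 20 °C is the lowest point of the first and the last set.

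Few HS-lower windows were enriched for H3K9me2. In both 20 °C pairs E was at least 1 at 15 of them (1.91%), against 4.35% of the other eligible windows and 5.48% of all windows. It was at least 0 at 171 (21.8%), against 29.5% and 24.9%. The 4 with the highest H3K9me2 were on chromosomes II and IV. At chromosome II from 7122983 to 7123482, H3K9me2 E was 2.69 and 1.68 at 20 °C and 0.79 and 0.68 at 37 °C, and H3K27ac E was 1.47, 1.56 and 1.83 in WT and 1.08, 1.44 and 0.32 in HS. E of both marks was lower after heat there, and the H3K27ac groups were only 0.03 apart. At chromosome II from 13334957 to 13335456, H3K9me2 E was 2.14 and 1.69 at 20 °C and 1.41 and 2.42 at 37 °C, without a common direction. At chromosome IV from 10821298 to 10821797 the values were 2.35 and 0.93 at 20 °C and 1.19 and 1.36 at 37 °C. The last, on chromosome II from 11749463 to 11749962, lies in a run of 4 HS-lower windows from 11748463 to 11750462 with H3K9me2 E of 1.73 and 0.64 at 20 °C.

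The windows with the largest H3K27ac differences varied in H3K9me2, and several had very low levels at 20 °C. In the run of 8 windows on chromosome IV from 14035284, H3K9me2 E was -2.68 and -1.44 at 20 °C and -0.40 and -0.39 at 37 °C. At the HS-lower window with the lowest difference, on chromosome V from 9088937, it was -3.69 and -1.33 at 20 °C. At 37 °C it was -0.88 and 0.16 there. Over the 26 windows with an H3K27ac difference of at least 1, the medians were -2.04 and -0.68 at 20 °C and -0.06 and 0.06 at 37 °C. Of these 26 windows, 13 lay in the 2 largest stretches, so they are not separate places. The HS-lower windows of those stretches had medians of -1.745 and -0.659 at 20 °C. The 20 °C medians of the 26 windows lay below those of the whole set of HS-lower windows in both pairs, but single windows went the other way. The window on chromosome II from 14405452 had the second lowest H3K27ac difference of the HS-lower windows. Its H3K9me2 E was 1.37 and 0.71 at 20 °C and 0.35 and 0.62 at 37 °C. At chromosome X from 11292189 it was 0.57 and 0.29 at 20 °C, and at chromosome V from 19951891 it was -0.99 and 1.95.

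The median change of H3K9me2 E from 20 °C to 37 °C was 0.64 at the HS-lower windows, 0.31 at the other eligible windows and 0.67 over all windows. The change at the HS-lower windows was thus close to that of the genome. The 20 °C medians of these sets were negative, so the change does not describe windows that bear H3K9me2. For regions that bear the mark, the study reports fewer H3K9me2 reads after heat, and its blots and stainings show a loss. The size of the change in E depended on the scaling. In the test on IP counts alone, the median log2FC at the HS-lower windows was 0.38 with nuclear totals, 0.03 with TMM and -0.07 with DESeq2. At the other eligible windows it was 0.06, -0.36 and -0.50, and over all windows 0.43, 0.09 and -0.02. Both 37 °C pairs were above both 20 °C pairs at 52.5% of the HS-lower windows, 38.4% of the other eligible windows and 50.3% of all windows. edgeR called 0 of 197552 windows in either direction at an adjusted p under 0.01 (0.0%), with 2876 at an unadjusted p under 0.05, 4 of them HS-lower windows and 211 other eligible ones. The smallest adjusted p of an HS-lower window was 0.744, and DESeq2 also called 0, with 31 of the 785 HS-lower windows at an unadjusted p under 0.05, beside 1208 of 10786 other eligible windows and 17522 of 197528 windows in all. This call rested on the 20 °C libraries. Without 20 °C replicate 1, edgeR called 4264 windows, 5 of them HS-lower. Without 20 °C replicate 2 it called 143124, 534 of them HS-lower, where the lone 20 °C library was assumed to vary like the 37 °C ones.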

How the data were processed

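H3K27ac and H3K9me2 ChIP-seq of C. elegans early embryos was analysed. The authors sequenced paired ends, aligned them to ce10 (the build in the submitters' processing notes) using QuasR with bowtie, retained reads that mapped to 1 place, and deposited raw counts of reads per 500-bp window, 1 column per library. Column totals are even, which means that the mates of a pair each count as 1 read. Reads that map to several places are not counted, which lowers counts over repeats.

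Counts were scaled by nuclear totals to their mean (28 mitochondrial windows left out), a pseudocount of 2 was added, and each IP library was divided by the input of the same group and number. The input minimum was taken over all 12 H3K27ac inputs. Windows were tested with edgeR 4.0.16 (R 4.3.3) by quasi-likelihood on IP counts with nuclear totals, for met-2Δ against met-2-CD (6 libraries) and for H3K9me2 at 37 °C against 20 °C (4 libraries), adjusted over all windows past the input minimum. DESeq2 1.42.0 was an alternative. The scripts were tested on simulated data. Tables and figures were made with Python 3.11.15, pandas 2.3.3 and matplotlib 3.10.9.

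The windows, stretches and comparisons were chosen with earlier results of these data known. Named windows came from chromosomes II to V and X. Among the HS-lower windows they were the 8 with the lowest HS minus WT difference and the 6 longest runs. The 4 with the highest WT E and the 4 with the highest H3K9me2 at 20 °C were added. Windows nearest to each limit of the rule were named as well. Samples were grouped by genotype, temperature and replicate number in the labels. The labels and the study call the replicates biological, without saying how cultures were split, and p-values measure the spread between these libraries. No column of other samples was present.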

Additional observations from a re-analysis of the deposited data

How the results depend on the processing

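The sign and the median of the HS minus WT difference are held in place by the rule, which selects windows anew under each alternative. In fixed windows background scaling moved the mean difference of the largest stretch from -0.88 to -0.70, and that of the stretch on chromosome II from -0.22 to -0.04. The count of HS-lower windows was 444 with background scaling, 312 with TMM, 1791 with a mean WT E of at least 0.5 and 373 with at least 1.5. Pseudocounts of 1 and 8, the input minimum over 6 libraries, at 50 or absent, and the mean input of a group kept it between 746 and 1179. Leaving out WT pairs gave 1039 to 1803 windows (1803 without replicate 3, 1213 without replicate 2), and leaving out HS pairs 1000 to 1247 (1247 without replicate 2), since fewer pairs make the rule easier to meet.

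The share of HS-lower windows adjacent to another was 31.5% with background scaling, 35.9% with TMM, 32.7% with a mean WT E of at least 1.5 and 49.4% with the mean input of a group. Without single WT pairs it ran from 38.8% to 49.6%, and without single HS pairs from 41.1% to 45.0%. The median E in met-2Δ and met-2-CD was 0.63 and 0.77 with a WT minimum of 0.5, and 1.51 and 1.68 with a minimum of 1.5, which follows from the level chosen.

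The median H3K9me2 E at 20 °C was -0.92 with background scaling and -0.16 with a WT minimum of 1.5. Without single WT pairs of either mark it ran from -0.78 to -0.29, and without single HS pairs from -0.57 to -0.19. At 37 °C it was 0.84 when mitochondrial reads were included in the totals. With those totals the share of windows lower in HS in the unused pair was 76.5% in pair 1, and with background scaling, chosen after seeing the data, 74.5%, 44.5% and 39.4% in pairs 1 to 3, against 38.5%, 14.9% and 10.9% of the other eligible windows. The look-up of stretches and named windows under the other scalings was also chosen after seeing the data.

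Between the mutants, 0 HS-lower windows were called in each of the 13 alternatives. With a replicate block edgeR called 55 windows and 0 HS-lower ones there, and 0 windows in H3K9me2. Same-numbered mutant libraries did not deviate together, with correlations of 0.09, -0.27 and -0.44, nor did those of H3K9me2 with -0.06, so numbers were not taken as pairs. Between H3K9me2 at 37 °C and 20 °C, the number of HS-lower windows called ran from 0 to 534 when single replicates were left out. Depth limits windows with few input reads, and 2 pairs limit H3K9me2.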

Other observations

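H3K9me2 at the HS-lower windows differed between chromosomes in pair 1 at 20 °C. Its median E ran from -1.40 on chromosome IV and -1.05 on chromosome III to -0.52 on chromosome X and -0.38 on chromosome II, while at the other eligible windows of the same chromosomes it was -0.22, -0.12, 0.07 and -0.07. In pair 2 the medians of these 4 chromosomes were -0.38, -0.19, -0.45 and -0.15 at the HS-lower windows, and -0.22, -0.15, -0.23 and -0.13 at the others. The order of the chromosomes thus differed between the pairs, and no test was made of it.

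The HS-lower windows that met the rule under every scaling lay on all chromosomes, with 22 on I, 45 on II, 40 on III, 57 on IV, 44 on V and 38 on X. Their median H3K27ac E was 1.44, 1.46 and 1.33 in WT and 0.82, 0.70 and 0.86 in HS. In met-2Δ it was 1.04, 1.31 and 0.92, and in met-2-CD 1.10, 1.11 and 1.56.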
